A study of Gallus gallus with 24 samples.

Results

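Developmental patterning transcription factors were followed in 4 tissues of Ross broiler chicks, a fast-growing meat chicken, at hatch and 1 week later. The genes belong to the HOX, PAX, SOX, ZIC, OTX, NKX, GATA, CDX and FOX families. A probe set, the group of short probes that reads 1 transcript on the array, was a member if the array annotation gave it a single gene symbol of these families. PAX3, PAX7, SOX4, SOX11, FOXO1 and FOXO3 were left out by the rule. This gave 90 genes, read by 158 probe sets, of 38535 probe sets on the array. The samples were male chicks of 1 genotype, with breast muscle, duodenum, liver and whole brain taken at day 7 and at day 0 (hatch). There were 8 groups with 3 arrays each, 24 arrays in all, and every array was hybridised with RNA pooled from 4 to 5 chicks. The labels name no treatment. A pool is therefore the replicate, and its spread is that between pools, not between single birds.

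These proteins bind DNA and set the identity of regions and cell types in the embryo, and many stay active later in the cells they helped to specify. HOX genes lie in clusters, and in vertebrate embryos the order of genes along a cluster matches the order of their expression from head to tail (collinearity). The forebrain and midbrain form ahead of the HOX domain and use OTX, SOX and PAX factors instead. CDX and GATA factors and FOXA2 act in the gut and its outgrowths, the liver and pancreas. In whole-tissue RNA, fewer cells of a type and less RNA per cell cannot be told apart.

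Of the 158 member probe sets, 98 (65 genes) were bright enough to be tested, meaning that at least 1 group reached the median signal of all arrays. The other 60 did not pass, among them 36 of 61 HOX probe sets. Signals are arbitrary units of brightness and were compared between samples for 1 probe set at a time, never between probe sets. Differences are log2 values with a pseudocount of 28.36 added to every signal, ± SE, so they understate the change of dim probe sets. Adjusted p-values come from limma with Benjamini-Hochberg adjustment over all 25758 probe sets tested, and a call is an adjusted p under 0.05. The SE and p-value of a probe set rest on 1 spread estimated over all 24 arrays, not on the named tissue alone. Pools that lie close together in 1 tissue can therefore go without a call. Where a gene had several probe sets, the brightest is given unless another is named. Whether the pools of the groups overlapped is given as a description of that probe set, not as a test.

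The tissues carried their own markers. All 6 tested neuron markers were enriched in brain, all 5 myofibre markers in breast muscle, 4 of 6 hepatocyte markers in liver and 5 of 7 enterocyte markers in duodenum, where enriched means a call and a 4-fold lead or more over every other tissue. Duodenum also carried 9 of 10 tested exocrine pancreas genes as enriched, a list added after the signals had been seen. On the duodenum arrays of day 7 pool 1 and day 0 pool 2, the spiked hybridisation controls averaged 41950.0 and 25050.0, against 5736 to 14530.0 on the other 22 arrays. The lowest 5′ to 3′ ratios of control genes among the brain arrays, a measure of RNA integrity, were on day 7 pool 3 and day 0 pool 1.

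The first comparison asked which factors marked 1 tissue over both ages together. Whole brain had 14 enriched member probe sets from 11 genes. That is 8.86% of all 158 members, against 4.27% of all probe sets without a filter. Of those tested it is 14.3% of members, against 6.38% of all probe sets. Without a filter, duodenum had 5 (3.16%, background 1.35%), breast muscle had 6 (3.8%, background 1.56%) and liver had 0 (background 1.25%). Of those tested, the shares were 5.1% in duodenum (background 2.02%), 6.12% in breast muscle (background 2.33%) and 0 in liver (background 1.86%). The genes were ZIC, SOX, OTX, PAX and NKX factors with FOXD1 in brain, and CDX1, CDX2, NKX2-5 and GATA5 (by its brightest probe set) in duodenum. In breast muscle they were HOXA6 (by its dimmer probe set), HOXA7, HOXA9 and HOXA11 with FOXD3. With each age taken alone, 14 of the 18 genes in the plot of differences between tissues passed at day 7 and at day 0. NKX2-1 and FOXD1 did not at day 7, and SOX10 and GATA5 did not at day 0.

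**Figure D1:**
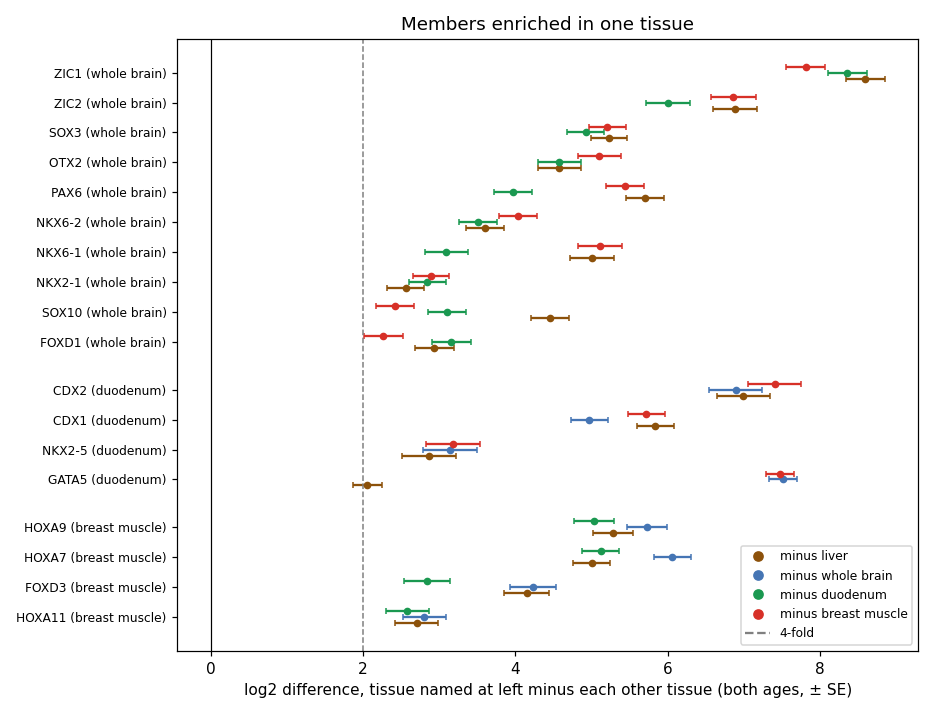
Log2 difference (± SE) of 18 enriched genes between their own tissue and each of the other 3 tissues, over both ages. Each gene is shown by its brightest probe set, grouped by tissue down the page, with the 4-fold line dashed. PAX2 and the dimmer HOXA6 probe set, also enriched, are not shown. ZIC1 and CDX2 lie far to the right of the line, while GATA5 touches it only for its distance to liver.

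ZIC1 and ZIC2, zinc finger factors of the dorsal neural tube and cerebellum, stood furthest apart. ZIC1 read between 10669 and 19931 with a median of 13609 in the 6 brain pools, and no pool of another tissue exceeded 66.2. Its smallest difference, over breast muscle, was 7.81 ± 0.25 (adjusted p = 9.4e-19). ZIC2 read between 4271 and 6728 with a median of 5460.1 in the brain pools, with 127 as the highest signal elsewhere. No brain pool of either gene overlapped any pool of the other tissues.

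SOX3, which keeps neural progenitors undifferentiated, read between 1105 and 1416 with a median of 1194 in brain and at most 71.6 elsewhere (smallest difference 4.92 ± 0.24). OTX2, a head organiser and midbrain factor, read between 783 and 1942 with a median of 1395 in brain and at most 63.6 elsewhere. Its smallest difference was 4.58 ± 0.28. PAX6, a factor of the eye, forebrain and islet, read between 1609 and 2855 with a median of 1915 in brain. Its next tissue was duodenum, at a difference of 3.97 ± 0.25, and the highest pool there was one of day 0 with 256.

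The NKX factors of the ventral neural tube were also highest in brain. NKX6-1, which specifies ventral neurons and later islet beta cells, read between 1291 and 2074 with a median of 1488 in brain, and its next tissue was again duodenum (3.09 ± 0.28). NKX6-2, active in oligodendrocytes, read between 387 and 873 with a median of 601 in brain with a smallest difference of 3.50 ± 0.25. NKX2-1, a factor of the hypothalamus, thyroid and lung, read between 136 and 374 with a median of 186 in brain, and its difference was 2.56 ± 0.24. With the day 7 arrays alone it was 1.99, just under 4-fold, against 3.05 with the day 0 arrays alone.

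SOX10, the factor of neural crest, oligodendrocytes and Schwann cells, read between 1433 and 3439 with a median of 2194 in brain, and its next tissue was breast muscle (2.41 ± 0.25). The difference was 3.31 with the day 7 arrays alone, and 1.52, under 4-fold, with the day 0 arrays alone. FOXD1, a forebrain and kidney stroma factor, read between 243 and 399.6 with a median of 263 in brain, also with breast muscle next (2.27 ± 0.25), at 1.78 with the day 7 arrays alone, against 2.75 with the day 0 arrays alone. PAX2, of the midbrain-hindbrain boundary and kidney, was the remaining gene enriched in brain. SOX8, a relative of SOX10, was high in brain as well (between 2106 and 5020.4 with a median of 4295) but breast muscle read between 1355 and 2875 with a median of 1920.2, so it did not reach 4-fold.

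None of the 98 tested members was called for age in whole brain by limma (background 0.233% of all tested probe sets), and 3 passed an unadjusted p of 0.05 (background 6.25%). ZIC1 read 12985, 10669 and 14234 in the day 7 pools, against 19931, 11733 and 17810.1 in the day 0 pools. The groups overlapped, and the log2 change was -0.36 ± 0.36. Among the brightest probe sets of the brain-enriched genes, NKX6-2 had the largest size of change in brain, 759, 608 and 873 in the day 7 pools, against 595, 387 and 459.7 in the day 0 pools. Those pools did not overlap, yet the adjusted p was 0.909 for a change of 0.61 ± 0.35.

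In duodenum the caudal-type factors CDX1 and CDX2, which define intestinal epithelium, were the members furthest above the other tissues. CDX1 read 2802, 3446 and 3054 in the day 7 pools, against 2777, 2552 and 2768 in the day 0 pools. The day 7 pools lay just above the day 0 pools, and the change of 0.19 ± 0.34 was not called (adjusted p = 0.755). CDX2 read 15336, 4510.4 and 4919 in the day 7 pools, against 3632, 8987 and 5446 in the day 0 pools. The ages overlapped, and the high pools, day 7 pool 1 and day 0 pool 2, were on the 2 arrays with the brightest hybridisation controls, whose part in the result was not tested. Over the next tissue CDX1 differed by 4.97 ± 0.24 and CDX2 by 6.89 ± 0.35.

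Of the 98 tested members, 16 were called for age in duodenum (background 23.1%), 3 higher at day 7 (background 9%) and 13 lower (background 14.1%). The higher probe sets belonged to GATA4 and GATA5. The lower ones included 4 HOX genes, FOXA2, SOX9, PAX6 and NKX6-1. The median change of the tested members was -0.23, against -0.07 over all probe sets tested.

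GATA5, an endoderm zinc finger factor of gut and heart, read 14885, 8511 and 12325 in the day 7 pools, against 4916, 5334 and 4657 in the day 0 pools. Every day 7 pool was above every day 0 pool, and the change was 1.22 ± 0.26 (adjusted p = 0.00133). Its second probe set rose by 1.28 ± 0.34. GATA4, its relative in proximal intestine and heart, read 722, 923 and 689 in the day 7 pools, against 355, 321 and 275 in the day 0 pools. The pools did not overlap and the change was 1.22 ± 0.35 (adjusted p = 0.0129). The GATA4 call was lost under 3 of 35 alternatives, among them without day 7 pool 2 (1.09, adjusted p = 0.0556) and without day 0 pool 3 (1.13, adjusted p = 0.0521).

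GATA6, the third endoderm factor, read 6169, 6362 and 7925 in the day 7 pools, against 4849, 2897 and 4736 in the day 0 pools. The day 7 pools were all higher, at a change of 0.74 ± 0.28, but the adjusted p was 0.0579. GATA5 was enriched in duodenum over liver by 2.06 ± 0.19, just past 4-fold, and its second probe set was not enriched. The difference was below 4-fold without duodenum day 7 pool 1 (1.97) and without liver day 7 pool 1 (1.96), and it was 2.34 with the day 7 arrays alone, against 1.77 with the day 0 arrays alone. The gene reached 1721, 2386 and 2856 in the liver pools of day 7 and 1306, 1536 and 1456 in those of day 0, and did not exceed 45.1 in brain or breast muscle.

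FOXA2, a forkhead factor of endoderm that opens chromatin in liver, gut and pancreas, read 389, 294 and 217 in the day 7 pools, against 779.9, 882 and 898 in the day 0 pools. All day 0 pools were higher than all day 7 pools, and it fell by 1.46 on the log2 scale (SE 0.29, adjusted p = 0.000675). In liver the same probe set read 958, 899.6 and 838 in the day 7 pools, against 849, 752 and 829 in the day 0 pools, with overlapping pools and a change of 0.14 ± 0.29. The age change in duodenum differed from that in liver (liver minus duodenum 1.60 ± 0.41, adjusted p = 0.0149).

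SOX9, a factor of crypt progenitors, cartilage and pancreatic ducts, read 274, 448 and 438 in the day 7 pools, against 1331, 718 and 1139 in the day 0 pools. The groups were apart, and the change was -1.38 ± 0.37 (adjusted p = 0.00744). NKX6-1 read 54.0, 40.9 and 87.6 in the day 7 pools, against 296, 653 and 239 in the day 0 pools. This was the largest called change of any member in duodenum, -2.16 ± 0.40 (adjusted p = 0.000293). PAX6 read 15.6, 115 and 57.9 in the day 7 pools, against 256, 152 and 152 in the day 0 pools. Its pools did not overlap, with a change of -1.36 ± 0.36 (adjusted p = 0.00656). The PAX6 call was lost under 3 of 35 alternatives. These were without day 7 pool 1 (-0.91, adjusted p = 0.0587), without the 4 arrays that stand apart, and with duodenum fitted alone. Day 7 pool 1, the lowest of these PAX6 readings, was on the array with the brightest hybridisation controls.

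PAX6 and NKX6-1 are also islet factors, and pancreas genes moved in the same pools. In the list of enteroendocrine and islet genes, added after the signals had been seen, 2 of 10 fell in duodenum (background 14.1%). INS, encoding insulin, read 208, 95.3 and 127 in the day 7 pools, against 733, 607 and 823 in the day 0 pools, and GCG, encoding glucagon, read 56.8, 172 and 109.7 in the day 7 pools, against 789, 1226 and 884 in the day 0 pools. Of 10 exocrine pancreas genes 5 fell and 1 rose (backgrounds 14.1% and 9%). Their summed signal was 45162 to 52550.0 in the day 7 pools, against 88799 to 156840.0 in the day 0 pools. Neuron markers fell in 4 of 6 cases (background 14.1%). They summed to 1212 to 1474 in the day 7 pools, against 3595 to 4363 in the day 0 pools. Cell cycle genes fell in 5 of 6 cases (background 14.1%). Their sum was 9310.2 to 14057 in the day 7 pools, against 28152 to 32537 in the day 0 pools. The part of these cells in the changes of FOXA2, SOX9, PAX6 and NKX6-1 was not tested.

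**Figure D2:**
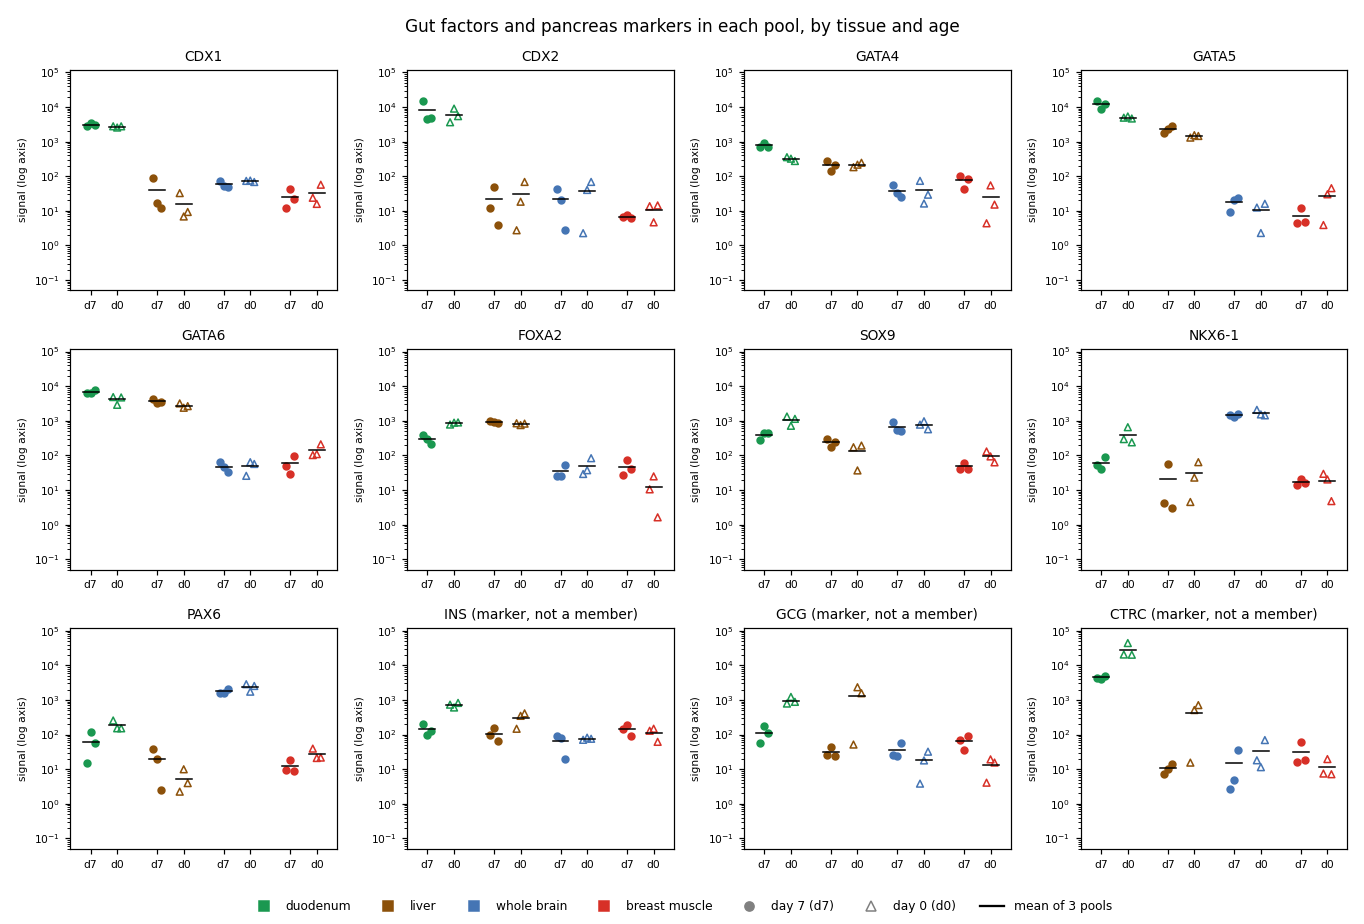
Signal (log axis) of gut and pancreas factors, and of 3 pancreas markers, in every pool of the 4 tissues, with day 7 as filled circles left of day 0 as open triangles and the group mean as a line. In duodenum GATA4 and GATA5 are higher at day 7, while FOXA2, SOX9, NKX6-1 and PAX6 are lower, as are the markers INS, GCG and CTRC. These 3 markers were chosen from their lists, in which other genes were not called and CTRL rose (2.09).

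Enterocyte markers rose in 5 of 7 cases in duodenum (background 9%). Their summed signal was 124110.0 to 237380.0 in the day 7 pools, against 81906 to 91890.0 in the day 0 pools. T cell markers rose in 4 of 6 cases (background 9%). NKX2-5, known from heart and, in the gut, from the pyloric border, was enriched in duodenum by 2.87 ± 0.35 and read 382, 192 and 214 in the day 7 pools, against 336, 684 and 402 in the day 0 pools. Those ages overlapped. FOXM1, a driver of mitosis, read 497, 499 and 401 in the day 7 pools, against 914, 607 and 836 in the day 0 pools, all day 7 pools lying lower, and it changed by -0.71 ± 0.20 (adjusted p = 0.00952). FOXP1 fell as well, by 0.83 on the log2 scale. A dimmer SOX10 probe set fell by 1.20, while the brighter one was not called (-0.60 ± 0.35). Of 4 enteric glia and nerve markers 2 fell (background 14.1%), UCHL1 (-1.51) and ELAVL4 (-1.68), which is also in the neuron list. The glial marker S100B (-0.37) and VIP (-0.72) were not called.

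The HOX genes separated the tissues in another way. Without any filter, 31 of 61 (50.8%) HOX probe sets were called higher in breast muscle than in brain (background 23.3%), and 1 of 61 (1.64%) was higher in brain (background 21%). 19 of 61 (31.1%) were higher in breast muscle than in duodenum (background 20.3%), and 20 of 61 (32.8%) higher in breast muscle than in liver (background 20.8%). Duodenum exceeded brain in 16 of 61, or 26.2%, near the background of 23.8%, and liver exceeded brain in 15 of 61, or 24.6%, near the background of 24%. No HOX probe set was higher in brain than in duodenum or liver (backgrounds 22.4% and 23.9%). Several probe sets read 1 gene, so these counts are not of independent genes.

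In the HOXA cluster, HOXA2 and HOXA13 were too dim to test. HOXA3, HOXA4 and HOXA5, from the anterior end, were readable in duodenum, liver and breast muscle. HOXA7, HOXA9 and HOXA11, further along, were near the floor outside breast muscle.

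HOXA3 read 303, 393 and 356 in the day 7 pools, against 899, 978 and 832 in the day 0 pools of breast muscle, and 451, 452 and 355 in the day 7 pools, against 901, 1166 and 794 in the day 0 pools of duodenum. In liver its pools lay between 133 and 212 with a median of 166, and in brain between 37.6 and 129 with a median of 66.2. The difference between duodenum and breast muscle was not called (0.15 ± 0.19, adjusted p = 0.531). HOXA4 lay between 373 and 988 with a median of 635 in duodenum, between 348 and 588 with a median of 399 in liver, between 225 and 468 with a median of 371 in breast muscle and between 29.0 and 173 with a median of 66.5 in brain. For HOXA5 the brain pools did not exceed 34.6, and the lowest pool of any other tissue was 97.2.

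HOXA6 had 2 tested probe sets. The brighter one read between 2586 and 4194 with a median of 3358 in breast muscle, between 828 and 2835 with a median of 1912 in duodenum, between 774 and 1063 with a median of 896 in liver and between 15.2 and 414 with a median of 105 in brain. The dimmer one was enriched in breast muscle, where it read between 584 and 1761 with a median of 989.6, against between 77.0 and 229.8 with a median of 117 in duodenum. The 2 probe sets thus disagreed on whether the gene was 4-fold above the other tissues.

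HOXA7 read 5039, 4183 and 5022 in the day 7 pools, against 1982, 1706 and 1724 in the day 0 pools of breast muscle, and at most 115 in the other 18 pools. The smallest difference was 5.00 ± 0.24 (adjusted p = 2.11e-15). HOXA9 read 2441, 2566 and 2311 in the day 7 pools, against 1592, 1574 and 1578 in the day 0 pools of breast muscle and at most 75.6 elsewhere, a smallest difference of 5.03 ± 0.26. HOXA11 read between 142 and 383 with a median of 229.7 in breast muscle and at most 91.4 elsewhere (2.58 ± 0.28). No breast muscle pool of these 3 genes overlapped any other pool. HOXA10, which lies between HOXA9 and HOXA11, did not follow them: its brighter probe set read between 54.5 and 187 with a median of 67.6 in breast muscle and between 102 and 250.3 with a median of 183 in brain.

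**Figure D3:**
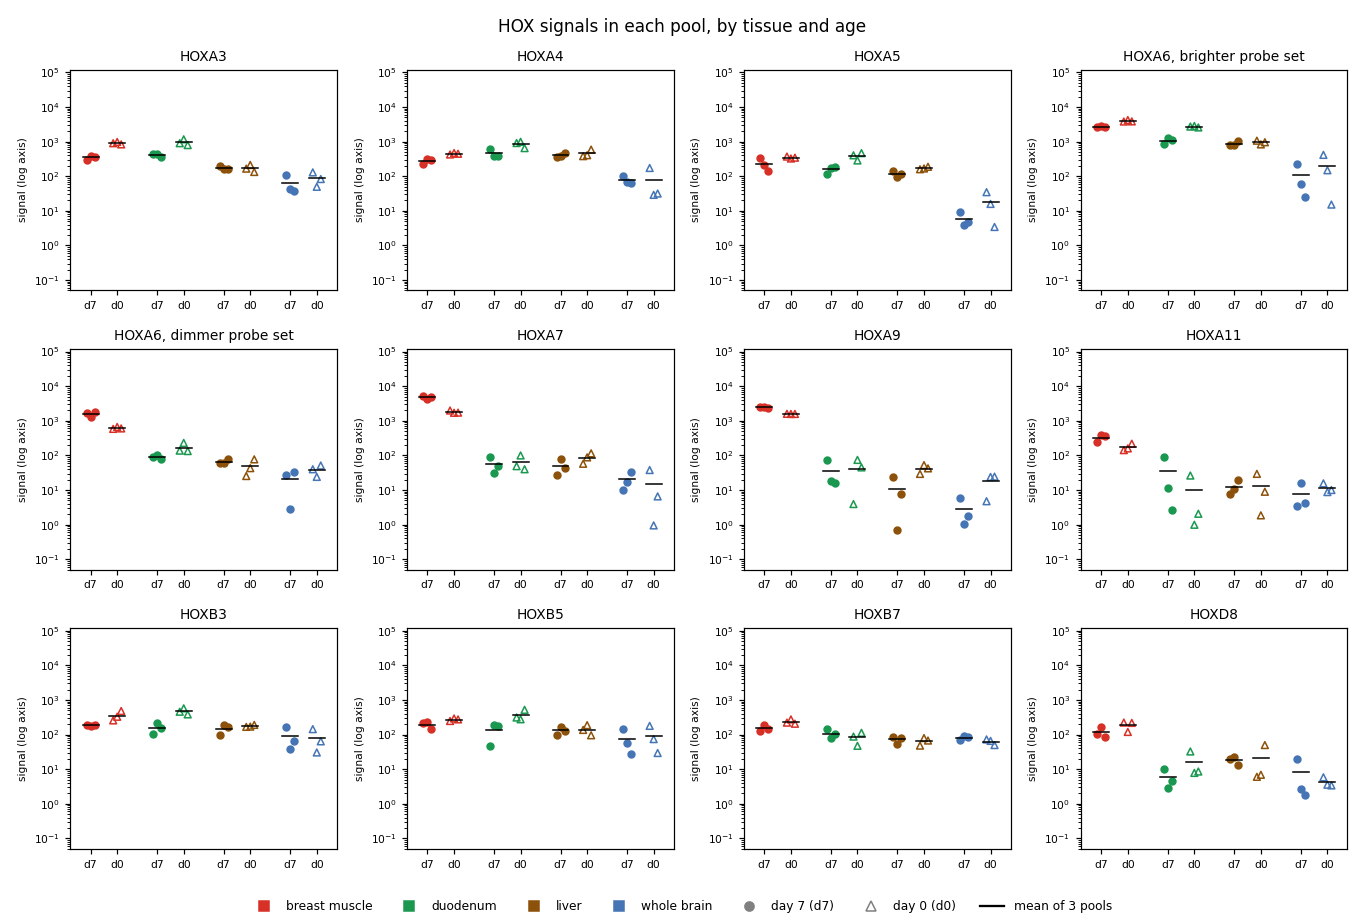
Signal (log axis) of 12 HOX probe sets in every pool of breast muscle, duodenum, liver and whole brain, with day 7 as filled circles left of day 0 as open triangles and the group mean as a line. HOXA7, HOXA9 and HOXA11 are bright in breast muscle pools alone, HOXA3, HOXA4 and HOXA5 in 3 tissues, and brain is lowest in most panels.

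Genes of the other clusters were read in the same way. HOXB3 lay between 101 and 574 with a median of 299 in duodenum and between 175 and 481 with a median of 224 in breast muscle, and between 30.5 and 166 with a median of 64.5 in brain. HOXB7 was highest in breast muscle (between 128 and 274 with a median of 199), with brain at between 49.8 and 90.4 with a median of 70.4. HOXD8 read between 84.5 and 222 with a median of 140.2 in breast muscle and at most 49.9 elsewhere. HOXB5 spread widely within groups, from 27.6 to 142 among the brain pools of day 7.

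By age, 4 of the 25 tested HOX probe sets, or 16%, fell in duodenum, near the background of 14.1%, and none rose. HOXA3 fell by 1.12 on the log2 scale (adjusted p = 0.00377), with no overlap between ages. HOXA5 read 119, 176 and 183 in the day 7 pools, against 403, 286 and 465 in the day 0 pools, at a change of -1.13 ± 0.29 (adjusted p = 0.00646). HOXB3 read 101, 215 and 154 in the day 7 pools, against 458, 574 and 383 in the day 0 pools, at a change of -1.47 ± 0.37 (adjusted p = 0.00538). HOXB5 read 46.6, 190.4 and 181 in the day 7 pools, against 312, 277 and 519.6 in the day 0 pools, at a change of -1.35 ± 0.44 (adjusted p = 0.0288). For each of the 4 genes every day 7 pool was below every day 0 pool. The HOXB5 call was lost under 6 of 34 alternatives. Among them were the fits without day 7 pool 1 (-0.85, adjusted p = 0.189) and without day 0 pool 3 (-1.10, adjusted p = 0.135). It was also lost after quantile normalization, with duodenum fitted alone and without the 4 arrays that stand apart. Day 7 pool 1, the lowest of the HOXB5 readings in duodenum, was on the array with the brightest hybridisation controls.

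HOXA4 and HOXA6 had values of the same sign in duodenum but were not called. HOXA4 had a log2 difference of -0.87 ± 0.34 (adjusted p = 0.0649), and the brighter HOXA6 probe set one of -1.34 ± 0.51 (adjusted p = 0.0584). That probe set read 828, 1252 and 1119 in the day 7 pools, against 2722, 2835 and 2572 in the day 0 pools, without overlap. The median over the 25 tested HOX probe sets was -0.38 in duodenum, against -0.07 over all probe sets. Of the 25, 20 (80%) were below 0, against 54.8% of all probe sets tested, and several of them read the same gene. In liver the HOX median was -0.06, in brain 0.04 and in breast muscle -0.10. The other 36 HOX probe sets were not tested, so these are values of the bright ones alone. In duodenum fibroblast markers fell in 4 of 6 cases and smooth muscle markers in 1 of 6 (background 14.1%). Their part in the HOX values was not tested.

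In breast muscle 3 of the 25 tested HOX probe sets, or 12%, rose, near the background of 11.9%. Only 1, or 4%, fell, against a background of 15.5%. The values of the HOXA genes were of both signs. HOXA3 fell by 1.30 on the log2 scale (adjusted p = 0.000763), with the day 7 pools all lower. HOXA4 (-0.65 ± 0.34), HOXA5 (-0.62 ± 0.29) and the brighter HOXA6 probe set (-0.53 ± 0.51) were not called. HOXA7 rose by 1.38 ± 0.34 (adjusted p = 0.0034), and so did its second bright probe set, by 1.30 ± 0.30. HOXA9 (0.61 ± 0.37) and HOXA11 (0.81 ± 0.40) were not called, although their day 7 pools were all above their day 0 pools. The dimmer HOXA6 probe set rose by 1.30 ± 0.30 and read 1633, 1316 and 1761 in the day 7 pools, against 584, 664 and 602 in the day 0 pools, opposite in sign to the brighter one. The HOXA7 call was lost with the 10th percentile of signals as pseudocount.

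HOX proteins bind DNA with cofactors such as PBX and MEIS proteins. The list of these also held TGIF1 and TGIF2, which share their type of DNA-binding domain but are not established HOX cofactors. Of 8 tested genes of the list, 3 fell in duodenum and none rose. These were MEIS1 (-0.99), MEIS2 (-0.54) and PBX3 (-0.66), against a background of 14.1% lower. In breast muscle 2 fell, MEIS2 (-0.65) and TGIF1 (-1.28), against a background of 15.5%. The median change was -0.54 in duodenum and -0.50 in breast muscle, against -0.07 and -0.02 over all probe sets. Among 15 Polycomb and trithorax genes, whose products hold HOX genes silent or active, 3, or 20%, fell in duodenum (EED, BMI1 and PHC1) and 1, or 6.67%, in breast muscle (KMT2E), against the same backgrounds of 14.1% and 15.5%.

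Breast muscle had the most age calls of the 4 tissues. Of 98 tested members 23 were called (background 27.4%), 10 higher at day 7 (background 11.9%) and 13 lower (background 15.5%), from 8 and 10 genes. Without day 0 pool 3 the count was 13, and without day 7 pool 2 it was 14. HOXA7, FOXL2, FOXM1 and FOXN2 rose, as did dimmer probe sets of HOXA6 and SOX5. GATA4 and FOXA2 were called higher too, but each of their breast muscle pools read below 104.6, the signal a group had to reach for a test, and they were tested through other tissues. SOX10, HOXA3, FOXP2, FOXO4, SOX17, GATA6, FOXP1 and SOX7 fell, as did FOXN3 and 3 probe sets of FOXK2.

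SOX10 read 169, 238 and 191 in the day 7 pools, against 636, 847 and 699.7 in the day 0 pools. The groups were far apart, and its change of -1.73 ± 0.35 was the largest called among the members in breast muscle (adjusted p = 0.000576). FOXD3, which marks neural crest and its glial derivatives and was enriched in breast muscle by 2.84 ± 0.30, read 852, 900.0 and 879 in the day 7 pools, against 1312, 1299 and 1243 in the day 0 pools. Its day 7 pools were all lower, but the change of -0.54 ± 0.42 was not called (adjusted p = 0.385). That SE comes from the arrays of all 4 tissues, not from the breast muscle pools alone.

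Myelin and Schwann cell genes moved in the same muscle pools. Of 4 oligodendrocyte and myelin markers 3 fell (background 15.5%), MBP (-2.23), MOG (-1.19) and CNP (-0.81), while MOBP was not called (0.53). The list summed to 2382 to 2576 in the day 7 pools, against 9844 to 11000.0 in the day 0 pools. MBP made up most of that sum. MOG was not highest in brain, where its day 7 and day 0 means were 293.9 and 205.2, against 381.6 and 487.5 in liver. MBP, myelin basic protein, read 2000.4, 1896 and 1997 in the day 7 pools, against 8865, 9837 and 9285 in the day 0 pools. Of 3 Schwann cell markers, a list added after the signals had been seen, 2 fell (background 15.5%). These were PMP22 (-0.71) and CDH19 (-1.96), and S100B was not called (0.67). The list summed to 6077 to 6912 in the day 7 pools, against 10107 to 11860.0 in the day 0 pools. PMP22 made up most of that sum, with means of 6329 at day 7 and 10370 at day 0. It was called lower in liver (-0.47), duodenum (-0.95) and brain (-0.88) too, so its fall was not particular to muscle. The part of nerve cells in the SOX10 change was not tested.

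SOX7, SOX17 and SOX18 are the endothelial SOX factors. SOX17 read 633, 647 and 625 in the day 7 pools, against 1349, 1309 and 1376 in the day 0 pools. It was lower in every day 7 pool, with a change of -1.05 ± 0.26 (adjusted p = 0.00335). SOX7 read 1502, 1379 and 1590.1 in the day 7 pools, against 2253, 2260.3 and 2188 in the day 0 pools, at a change of -0.58 ± 0.21 (adjusted p = 0.0451), a call lost under 17 of 35 alternatives, among them each fit that left out 1 breast muscle array, where the log2 difference was -0.62 to -0.52. SOX18 read 2145, 2332 and 1889.5 in the day 7 pools, against 2785, 2831 and 2548 in the day 0 pools and was not called (-0.36 ± 0.16, adjusted p = 0.1). Of 7 endothelial markers 3 fell in breast muscle (background 15.5%). The list summed to 14970.0 to 15191 in the day 7 pools, against 19248 to 21621 in the day 0 pools. Its part in the SOX values was not tested.

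**Figure D4:**
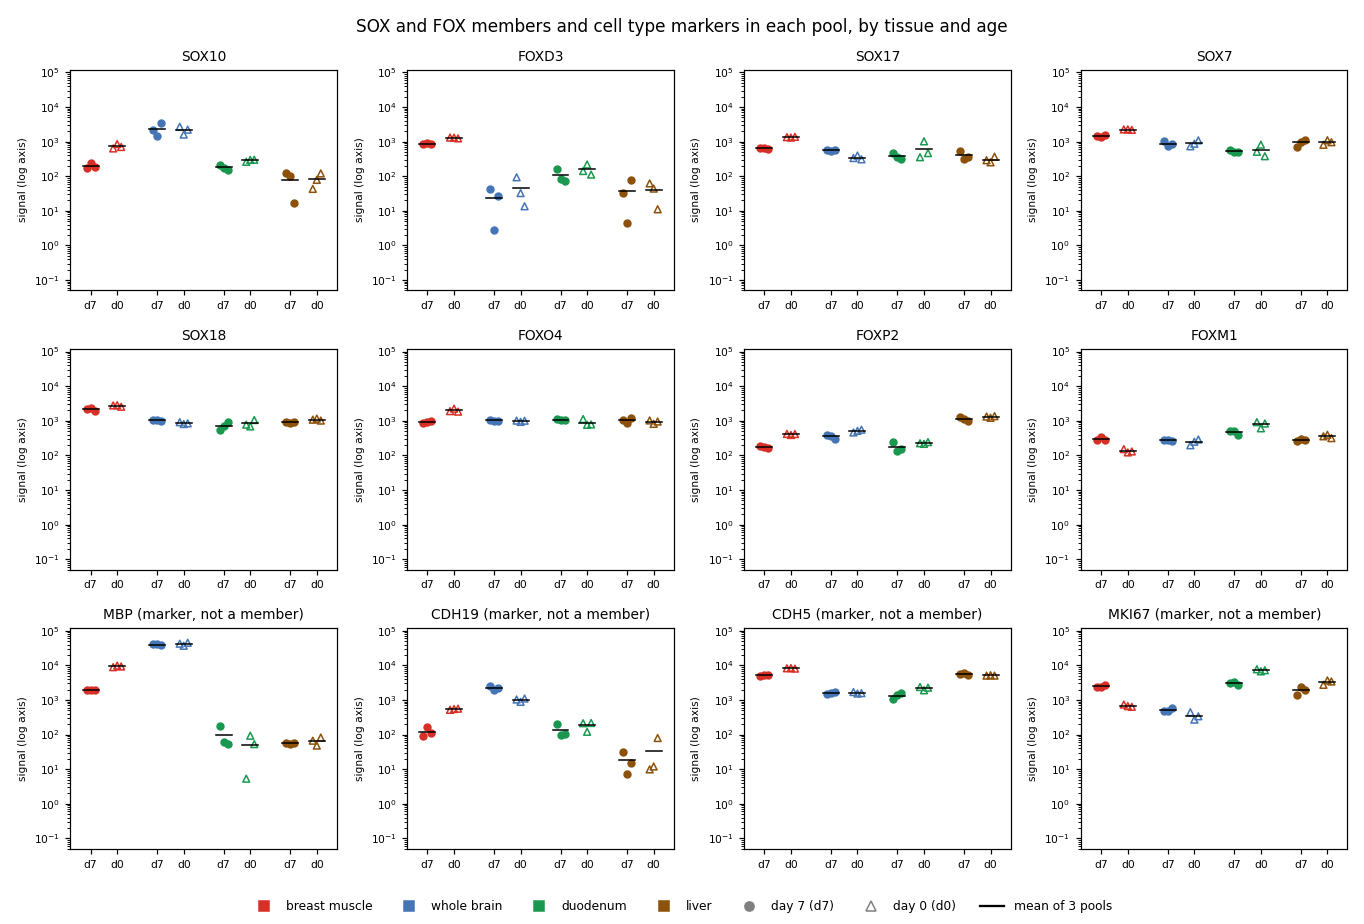
Signal (log axis) of SOX and FOX members, and of 4 cell type markers, in every pool of the 4 tissues, with day 7 as filled circles left of day 0 as open triangles and the group mean as a line. In breast muscle SOX10, SOX17, SOX7, FOXO4 and FOXP2 are lower at day 7, as are the markers MBP, CDH19 and CDH5. FOXM1 is higher, as is the marker MKI67. These 4 markers were chosen from their lists, in which other genes, such as MOBP, S100B, KDR and MCM3, were not called.

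FOXO4, a forkhead factor held out of the nucleus by insulin signalling, read 870.3, 937 and 981 in the day 7 pools, against 1902, 2243 and 1840.0 in the day 0 pools. The day 0 pools were all higher, and the change was -1.07 ± 0.15 (adjusted p = 6.43e-06). FOXP2, a repressor known from brain and lung, read 185, 175 and 167 in the day 7 pools, against 418, 390.0 and 414 in the day 0 pools, again without overlap (-1.09 ± 0.18, adjusted p = 7.07e-05). Its relative FOXP1 read 317, 249.8 and 314 in the day 7 pools, against 505, 508 and 682 in the day 0 pools (-0.88 ± 0.28, adjusted p = 0.0213).

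FOXM1 read 279, 334 and 275 in the day 7 pools, against 152, 122 and 130.1 in the day 0 pools. All day 7 pools were above all day 0 pools, at a change of 0.99 ± 0.20 (adjusted p = 0.000393). Of 6 cell cycle genes 5 rose in breast muscle (background 11.9%). Their summed signal was 7394 to 7694 in the day 7 pools, against 2230.5 to 2458 in the day 0 pools. FOXN2 read 1068, 746 and 978 in the day 7 pools, against 602, 661 and 552 in the day 0 pools, with the day 7 pools higher (0.59 ± 0.18, adjusted p = 0.0141). FOXL2, the ovarian and pituitary forkhead factor, read 183, 147 and 145 in the day 7 pools, against 33.5, 91.2 and 63.0 in the day 0 pools, again apart (1.08 ± 0.32, adjusted p = 0.0117).

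GATA4, GATA6 and FOXA2 were close to the floor in breast muscle. GATA6 read 48.6, 29.2 and 98.7 in the day 7 pools, against 102, 109 and 209 in the day 0 pools and fell by 0.97 on the log2 scale. GATA4 read 104, 41.8 and 82.6 in the day 7 pools, against 4.37, 54.4 and 15.1 in the day 0 pools. It was called higher (1.04 ± 0.35, adjusted p = 0.0278) although 1 day 7 pool lay below 1 day 0 pool, and the call was lost under 7 of 35 alternatives. FOXA2 read 27.3, 72.7 and 41.0 in the day 7 pools, against 10.5, 24.8 and 1.63 in the day 0 pools, a call lost under 5 of 35. Single arrays decided several of these calls. That of GATA4 was lost without day 7 pool 1 (0.85, adjusted p = 0.127) or 3 (0.98, adjusted p = 0.0805) and without day 0 pool 1 (0.75, adjusted p = 0.167) or 3 (0.96, adjusted p = 0.0891). The FOXA2 call was lost without day 7 pool 2 (0.65, adjusted p = 0.149) and without day 0 pool 1 (0.87, adjusted p = 0.0651) or 3 (0.69, adjusted p = 0.134). Those of GATA6 and FOXP1 were lost under 3 and 4 of 35 alternatives. Leaving out day 7 pool 2 ended the calls of GATA6 (-0.71, adjusted p = 0.0852) and FOXP1 (-0.77, adjusted p = 0.0852). Leaving out day 0 pool 3 ended those of GATA6 (-0.70, adjusted p = 0.0909), FOXP1 (-0.74, adjusted p = 0.0988) and FOXN2 (0.53, adjusted p = 0.0615). The FOXN2 call was also lost without day 7 pool 1 (0.48, adjusted p = 0.0809) or 3 (0.54, adjusted p = 0.0526), and that of FOXL2 without day 0 pool 1 (0.83, adjusted p = 0.0865).

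FOXK2, a forkhead factor that represses autophagy genes in mouse muscle, had 5 tested probe sets that did not move together. In breast muscle 3 fell, by 1.21, 0.48 and 0.36 on the log2 scale, while the brightest was not called (-0.04 ± 0.28, adjusted p = 0.946). In duodenum 1 of the 5 fell, by 0.52. In liver 1 rose, by 0.67, which was the sole age call of any member there.

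In liver that FOXK2 probe set was thus 1 of 98 members called for age (background 11.5%), and 13 passed an unadjusted p of 0.05 (background 23.1%). FOXA1, the partner of FOXA2 in liver chromatin, read 32.2, 19.9 and 108 in the day 7 pools, against 138, 222 and 164 in the day 0 pools. All day 7 pools were lower, but the change of -1.44 ± 0.50 was not called (adjusted p = 0.0644). GATA5 (0.66 ± 0.26) and GATA6 (0.41 ± 0.28) lay higher in all day 7 pools without a call. FOXP2 had its highest level in liver, between 963 and 1363 with a median of 1245, and brain was next, between 303 and 555 with a median of 429, and no member was enriched 4-fold in liver.

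Pancreas genes were also present in liver pools 2 and 3 of day 0. There CTRC, an exocrine protease, read 513 and 711, against 15.5 in day 0 pool 1, while the day 7 liver pools did not exceed 14.6. INS and GCG were called lower at day 7 in liver, and the part of such RNA in the liver values was not tested. PAX6 did not exceed 39.4 in any liver pool, and NKX6-1 did not exceed 63.7.

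**Figure D5:**
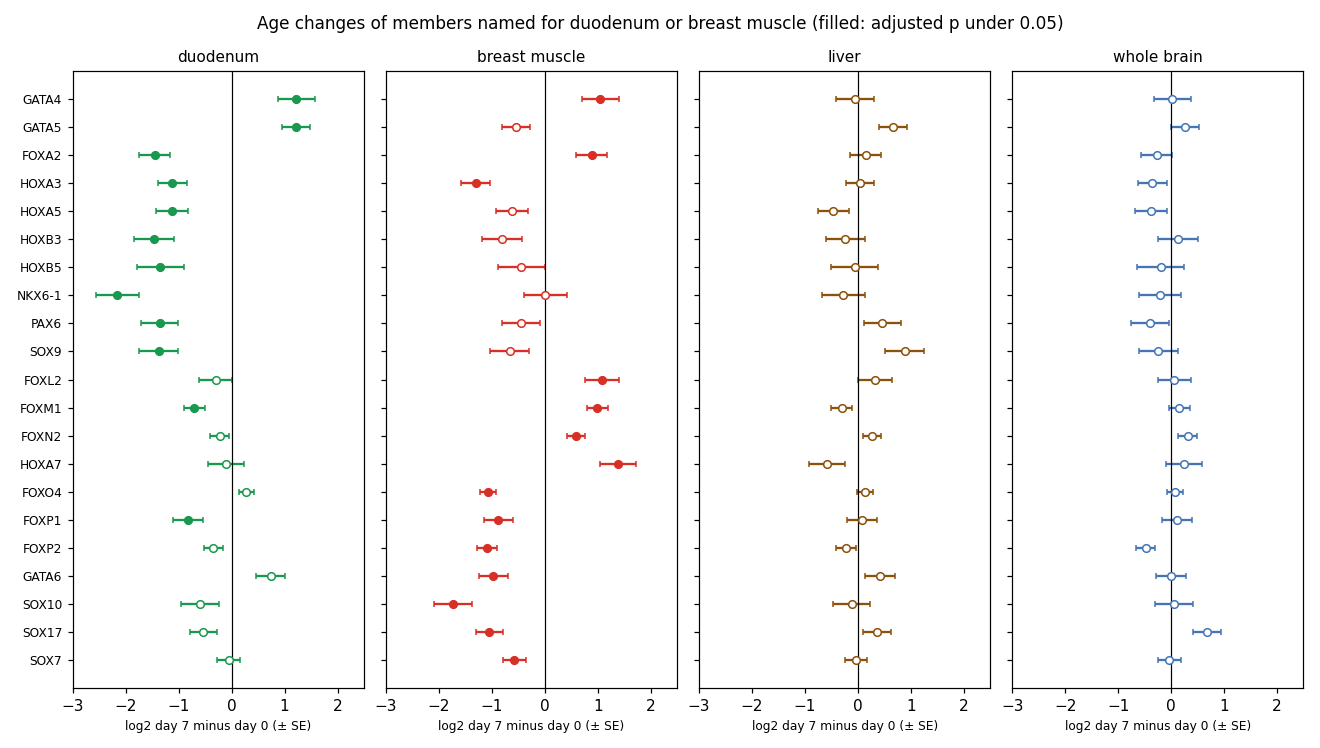
Log2 change at day 7 minus day 0 (± SE) of members named for duodenum or breast muscle, 1 row per gene and 1 panel per tissue, filled where the adjusted p was under 0.05. HOXA3 and FOXP1 are filled on the left in duodenum and breast muscle, GATA4 on the right in both, and FOXA2 and FOXM1 on opposite sides, where the GATA4 and FOXA2 points of breast muscle come from pools that read below 104.6, while no point is filled for liver or brain.

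Whether the age change itself differed between tissues was tested with an F test over the 4 changes. It called 19 of 98 members (background 30.4%). Of the 14 genes it called by their brightest probe set, 6 read below 104.6 in every pool of at least 1 tissue, so that the test there included differences among dim readings. FOXM1, with no such tissue, fell in duodenum and rose in breast muscle, and the changes differed (duodenum minus breast muscle -1.70 ± 0.28, adjusted p = 5.7e-05). GATA6 had a value of 0.74 ± 0.28 in duodenum and -0.97 ± 0.28 in breast muscle, and these differed (1.71 ± 0.39, adjusted p = 0.00214), with the breast muscle pools dim as given above. For FOXO4 the duodenum and breast muscle changes differed as well (1.35 ± 0.21, adjusted p = 3.9e-05).

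HOXA3 fell in duodenum and in breast muscle, and the difference between these changes was not called (0.18 ± 0.39, adjusted p = 0.793). Its change in breast muscle differed from that in liver (liver minus breast muscle 1.34 ± 0.39, adjusted p = 0.0149), and for duodenum that difference was not called (liver minus duodenum 1.16 ± 0.39, adjusted p = 0.0653). SOX10 differed between brain and breast muscle (whole brain minus breast muscle 1.79 ± 0.50, adjusted p = 0.0158). NKX6-1 differed between brain and duodenum (whole brain minus duodenum 1.95 ± 0.57, adjusted p = 0.0272). For PAX6 the same difference was not called (0.96 ± 0.50, adjusted p = 0.266). GATA4 was not called by the F test (adjusted p = 0.0784).

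Secreted signals and their receptors set where patterning factors are switched on in embryos. Of 49 tested patterning signals and receptors, 2 (4.08%) rose and 13 (26.5%) fell in duodenum, against backgrounds of 9% and 14.1%, with a median of -0.47 against -0.07 over all probe sets. The fallers included BMP4 (-1.27) and BMP5 (-1.41), secreted ligands, the Hedgehog receptor PTCH1 (-0.87) and its effector GLI3 (-1.30), and the retinoic acid enzyme ALDH1A3 (-1.31). The Wnt receptor FZD4 rose (1.41). In breast muscle 4 (8.16%) rose and 12 (24.5%) fell, against backgrounds of 11.9% and 15.5% (median -0.22, against -0.02 over all probe sets). WNT5A (-1.81), FGFR3 (-1.69) and the activin binder FST (-1.58) were lower and ALDH1A1 (1.52) was higher. The ALDH1A1 means there, 65.97 at day 7 and 3.63 at day 0, were below 104.6, the signal a group had to reach for a test. In liver 2 rose and 4 fell (backgrounds 5.33% and 6.15%), and in brain 1 rose (background 0.132%). The brain call was of BMP5 (1.14), with means of 42.25 at day 7 and 2.981 at day 0, likewise below 104.6.

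Other factors of the same tissues were counted in the same way. Of 17 tested hepatic and intestinal factors 5 (29.4%, background 9%) rose and 2 (11.8%, background 14.1%) fell in duodenum, among them the bile acid receptor NR1H4 (1.23) and the goblet cell factor SPDEF (1.35), both higher. In breast muscle 6 of the 17 (35.3%, background 15.5%) fell. In liver 4 (23.5%, background 5.33%) rose, namely ELF3, PPARA, TCF7L2 and ISX. The ISX means there, 60.01 at day 7 and 11.95 at day 0, were below 104.6. HNF4A, CEBPA, NR1H4 and CREB3L3 were among those not called in liver. Of 31 tested homeobox and T-box genes outside the member families, 3 (9.68%) fell in duodenum, 2 rose and 2 fell (6.45% each) in breast muscle and 1 (3.23%) rose in liver, all below the background. SATB1, a chromatin organiser, rose in breast muscle (1.76) and in liver (1.94). Of 11 tested neural bHLH factors and ID genes, none was called in brain. The calls elsewhere were of ID genes. ID2 and ID4 fell in liver and in breast muscle (18.2% each, backgrounds 6.15% and 15.5%). ID3 rose in duodenum (0.77), which was 9.09% of the list against a background of 9%.

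The 60 untested probe sets comprised 36 of HOX, 9 of FOX, 5 of SOX, 4 of PAX, 3 of NKX and 1 each of GATA, ZIC and CDX genes. No direction was read from them. Among the tested members, extra probe sets of CDX2, ZIC1, OTX2 and HOXA7 had the same enrichment or age call as the brightest in at least 1 case. That of GATA5 had the same age call in duodenum but was not enriched there. Those of ZIC2, FOXK2, HOXA6 and SOX5 disagreed. A dimmer SOX5 probe set fell in duodenum by 1.32 on the log2 scale and rose in breast muscle by 0.75, while the brightest was called in neither. HOXA10-AS, an RNA antisense to HOXA10 that the name pattern admits, read between 67.1 and 155 with a median of 102 in breast muscle and at most 58.9 elsewhere.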

How the data were processed

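The deposited values are MAS5 signals, intensities on a linear scale that the authors made per array, per the submitters' processing notes, from 2 ug of total RNA of each pool on Affymetrix chicken arrays. Each array's mean, trimmed by 2% at each end, was 500.1 or 500.2. The settings of MAS5 were not given in the sources used here.

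From these, log2(signal + 28.36) was taken, 28.36 being the 25th percentile of all signals. The 96 control probe sets were left out, and 25758 of 38439 others passed, with at least 1 group mean, on that log2 scale, reaching the median signal of 104.6. limma 3.58.1 in R 4.3.3 fitted 8 group means on 24 arrays (lmFit, eBayes with an intensity trend, 16 residual degrees of freedom), and was tested on simulated data. Day 7 was tested against day 0 in each tissue, tissues against each other over both ages, and the 4 age changes with an F test. The number of arrays, 3 a group, limits the precision. Pool numbers were not used to pair samples.

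Symbols are those of the platform annotation, in which 27178 probe sets have 1 symbol, 177 several and 11180 none. Of the 158 members, 157 matched the RefSeq table (GRCg7b), used for names only. The members and lists were chosen with earlier results of these data known. Named were up to 8 members per direction called for age in a tissue, up to 10 enriched in a tissue, up to 8 by the F test, and the measured HOX genes; other members were named after their values were seen. No sequences are printed.

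Alternatives were other pseudocounts and filters, quantile or median normalization, no intensity trend, array weights, a replicate block, each tissue alone, each age alone, a 2-fold limit, and leaving out single arrays or the 4 arrays that stand apart by hybridisation controls or control gene ratios (duodenum day 7 pool 1 and day 0 pool 2, brain day 7 pool 3 and day 0 pool 1).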

Additional observations from a re-analysis of the deposited data

Results flagged for a closer look

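For the brightest probe sets of 14 genes the age change differed between the 4 tissues by the F test in limma, after Benjamini-Hochberg adjustment over all probe sets tested. The adjusted p was 6.63e-05 for FOXO4, which fell in breast muscle by 1.07 on the log2 scale, every day 7 pool lying below every day 0 pool, with values between 0.07 and 0.28 in the other tissues. It was 0.000238 for FOXM1, lower in duodenum and higher in breast muscle at day 7. It was 0.000882 for FOXA2, which fell in duodenum but read below 104.6, the signal a group had to reach for a test, in every pool of breast muscle and brain. For SOX17 it was 0.00212, with -1.05 in breast muscle and 0.68 (not called) in brain. For GATA5 it was 0.00475, with 1.22 in duodenum and 0.66 (not called) in liver, while breast muscle and brain stayed below 104.6. For GATA6 it was 0.00766, with 0.74 (not called) in duodenum, -0.97 in breast muscle, where the pools were dim, and brain below 104.6.

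SOX9 gave an adjusted p of 0.0102, with -1.38 in duodenum and 0.89 in liver. FOXN3 gave 0.012, with -0.50 in breast muscle and 0.45 in liver. Neither of these liver values was called by itself. NKX6-1 gave 0.013, PAX6 0.0462 and HOXA3 0.0233, and each of these fell in duodenum. NKX6-1 and PAX6 read below 104.6 in every pool of liver and breast muscle. HOXA7 gave 0.0158, with 1.38 in breast muscle, and was at most 115 in the other 18 pools. SOX10 gave 0.0267 and FOXP2 0.0471, both with their lowest value in breast muscle, -1.73 and -1.09. Groups had 3 pools, too few for a gap test of the highest or lowest pool, and the effect of single arrays is given by leaving each out in turn.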

How the results depend on the processing

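Over 50 results for named members, 1703 of 1770 alternative values kept their direction and their side of the threshold, 67 lost the call and 0 reversed, and 32 results were never lost. The causes of the losses were not tested. For an age change in 1 tissue, leaving out an array of another tissue keeps the log2 value and alters only its SE and adjusted p. The direction was then fixed in advance. Such fits are among the alternatives counted here and for each gene above, so these shares overstate how firm the age calls are. With the 10th percentile of signals as pseudocount, breast muscle had 10 enriched members, and with the median as pseudocount brain had 9 enriched members and liver 5 age calls. With a 2-fold limit, 16 were enriched in breast muscle, 8 in duodenum and 1 in liver. Liver age calls numbered 0 without a filter, 2 with the filter at the 75th percentile, 3 after quantile normalization, 2 after median centring, 11 with array weights, 9 without the 4 arrays that stand apart and 6 with liver fitted alone. The F test called 36 members with array weights. With 1 array left out, calls ranged from 0 to 4 in liver, 13 to 20 in duodenum and 13 to 24 in breast muscle, where the 13 came without day 0 pool 3 and 14 without day 7 pool 2. The F test then called 14 to 21, and enriched members numbered 13 to 15 in brain, 4 to 5 in duodenum and 6 to 7 in breast muscle. Same-numbered day 7 and day 0 pools of a tissue did not deviate together (12 correlations between -0.439 and 0.377, 2 of them over 0.1). Same-numbered pools of different tissues at the same age gave 36 correlations between -0.201 and 0.138, 2 of them over 0.1. With the pool number as a replicate block within each tissue, 18 members were called in duodenum, 19 in breast muscle and 1 in liver. That block does not cover chicks shared between tissues, on which the labels are silent. GATA5 enrichment in duodenum lost its call under 6 of 37 alternatives, FOXN3 in the F test after median centring, and NKX2-1, FOXD1, NKX2-5 and HOXA11 enrichment with the median as pseudocount. With 1 age alone, the enrichment of NKX2-1 (1.99) and FOXD1 (1.78) fell under 4-fold at day 7, and that of SOX10 (1.52) and GATA5 (1.77) at day 0.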

Other observations

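In 3 further cases, picked after their values had been seen, the ages lay apart without passing the test. The share of all probe sets whose pools lay apart is not given here, so these are examples only. PAX2, enriched in brain, read 91.8, 140.1 and 97.4 in the day 7 pools, against 36.6, 39.9 and 32.3 in the day 0 pools of breast muscle, with no overlap, at a change of 1.08 ± 0.41 (adjusted p = 0.0532). SOX8, a relative of SOX9 and SOX10, read 552, 488 and 470.5 in the day 7 pools, against 309.5, 299 and 217 in the day 0 pools of liver, all day 7 pools being higher (0.82 ± 0.31, adjusted p = 0.099). SOX17, which fell in breast muscle, read 580.5, 546 and 577 in the day 7 pools, against 336, 396 and 308 in the day 0 pools of brain, where every day 7 pool was higher (0.68 ± 0.26, adjusted p = 0.558). By contrast FOXN3, a repressor among the forkhead factors, fell in breast muscle, 3889.6, 3748 and 3836 in the day 7 pools, against 6361, 5118 and 4859 in the day 0 pools (-0.50 ± 0.16, adjusted p = 0.0188).

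Among the duodenum pools, 35 of 98 tested members (35.7%) were highest on day 7 pool 1 within their age and also highest on day 0 pool 2 within theirs, against 29.1% of all probe sets tested. These are the 2 arrays with the brightest hybridisation controls. The dimmer HOXA10 probe set read 419, 92.8 and 136 in the day 7 pools, against 109, 343 and 127 in the day 0 pools, and SOX30 read 291, 77.4 and 79.8 in the day 7 pools, against 40.7, 171 and 89.9 in the day 0 pools. NKX2-5 and CDX2 had the same 2 pools on top.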
